A study of Arabidopsis thaliana with 2 samples.

Results

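Transcripts of leucine-rich repeat (LRR) receptor kinases were compared between wild-type seedlings and seedlings of the double mutant crwn1 crwn2 of Arabidopsis thaliana, 10 days old, with polyadenylated RNA of each genotype sequenced as 1 library. The genes were chosen by annotation: 156 loci whose product name holds "leucine-rich" and "kinase", and 5 immune kinase loci added by name because their product names lack those words (FLS2 already met the name rule). The brassinosteroid receptor locus and nucleotide-binding resistance genes were left out. This gave 161 of the 21808 loci listed in either library, and 123 of them were measured, meaning that they reached an RPKM (reads per transcript length and library total) of 1 and 10 reads in at least 1 library. The mutated genes, CRWN1 and CRWN2, encode lamin-like proteins that line the nuclear envelope of plant cells from inside. The labels give no accession background and no mutant alleles for either genotype, and they do not say how many seedlings were pooled.

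LRR receptor kinases sit in the plasma membrane with a repeat-rich ectodomain outside the cell and a kinase domain inside. Binding of a ligand, often a short secreted peptide or a microbial fragment, brings the receptor together with a shorter co-receptor kinase such as BAK1, and the kinases then phosphorylate each other and cytoplasmic partners. In seedlings the family is known for sensing bacteria and wounding, for holding stem cell number in meristems, for vascular growth and for patterning the epidermis.

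Uniquely placed reads numbered 2094440 for wild type and 2203650 for the mutant. In that order of libraries, which is kept throughout, CRWN1 had 1021 and 57 reads, and CRWN2 had 148 and 9, so both mutated genes were low in the library labelled as the mutant. With 1 library per genotype there was no spread between replicates, no test between genotypes was made and no p-value is given, and harvest, RNA extraction and library preparation cannot be told apart from genotype. Every ratio divides the mutant value by the wild-type value. A log2 ratio is of RPKM + 1, a scale that understates the difference of weakly expressed genes. A fold value is the ratio of reads per library total, and the interval in parentheses is its exact 95% interval, which covers counting error only. Since reads copied by PCR are not independent molecules, that interval can be too narrow even for counting error. A gene was called lower or higher when its RPKM + 1 differed at least 2-fold and that interval excluded equality. Of the 161 loci 50 overlap another RefSeq gene, and since the strand of the libraries is not given in the sources used here, reads of overlapping genes cannot be told apart. In whole seedlings, fewer cells of a type and less RNA per cell cannot be told apart.

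Most LRR kinase transcripts differed by less than 2-fold between the libraries, and a few named genes stood out. SOBIR1, the adaptor kinase of receptor-like proteins, and PEPR2, a receptor of the wound peptide Pep1, were lower in the mutant library, as was the kinase gene AT4G29990. PXC1, a kinase gene of vascular development, and GHR1, a guard cell kinase gene, were higher, as were the weakly expressed AT5G59650, AT5G24100 and AT5G48740. These 3 lower and 5 higher genes were 2.44% and 4.07% of the measured LRR kinases, where 4.53% and 6.34% of all 14393 measured genes were called lower and higher. Either way the share called was 6.50% against 10.9% of all measured genes, so the counts alone are no result about the family. Within 2-fold of equality lay 115 of the 123 genes (93.5%), against 88.2% of all measured genes. The called genes nearest the 2-fold line were AT5G48740 at a log2 ratio of 1.04 and AT4G29990 at -1.14, and among those nearest to it that were not called were SUB at 0.98, AT3G47570 at -0.95 and PEPR1 at -0.93.

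**Figure D1:**
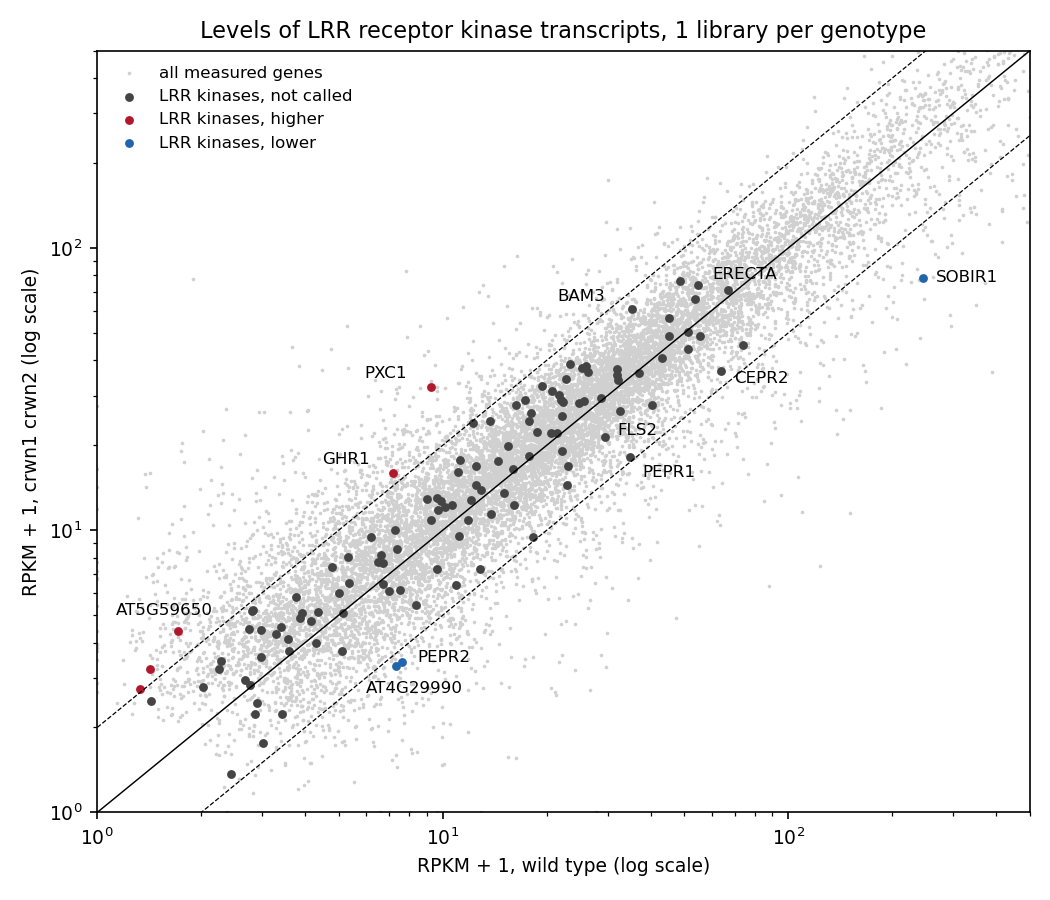
Level of each measured gene in wild type (x axis) and crwn1 crwn2 (y axis) as RPKM + 1 on log scales, with all measured genes in grey, LRR kinases as large points, equality as a solid line and 2-fold as dashed lines (genes beyond the axes are not drawn). SOBIR1 lies far to the right of the lower dashed line at 245 and 77.5 RPKM, while most LRR kinases lie between the dashed lines.

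The median LRR kinase lay slightly above the median gene. The median log2 ratio of the 123 genes was 0.23, with quartiles of -0.13 and 0.52, while the median of all measured genes was 0.12, with quartiles of -0.24 and 0.46. Above 0 lay 85 LRR kinases and below 0 lay 38. At any fold, the counting interval was wholly below equality for 16 genes (13.0%, where 12.5% of all measured genes were) and wholly above it for 33 (26.8%, where 22.4% were), and it held equality for 74. The library scaling moved this split. TMM scaling shifts the log2 ratio of read totals by -0.14 and puts the median of all genes at -0.01. With it the intervals of 20 LRR kinases were below equality (17.3% of all genes) and those of 22 above it (15.8% of all genes), with 5 called lower and 4 higher (5.74% and 4.8% of all genes) and a median of 0.11. LRR kinase transcripts together made up 0.628% and 0.656% of all reads of wild type and mutant, a ratio of 1.04 (1.02 to 1.07). SOBIR1 alone supplied 8.13% of the wild-type and 2.46% of the mutant reads of the family, and without it the ratio was 1.11 (1.08 to 1.14). The direction of the family's total depended on the scaling, since with TMM the ratio was 0.951 (0.929 to 0.974), and 1.01 (0.986 to 1.03) without SOBIR1.

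**Figure D2:**
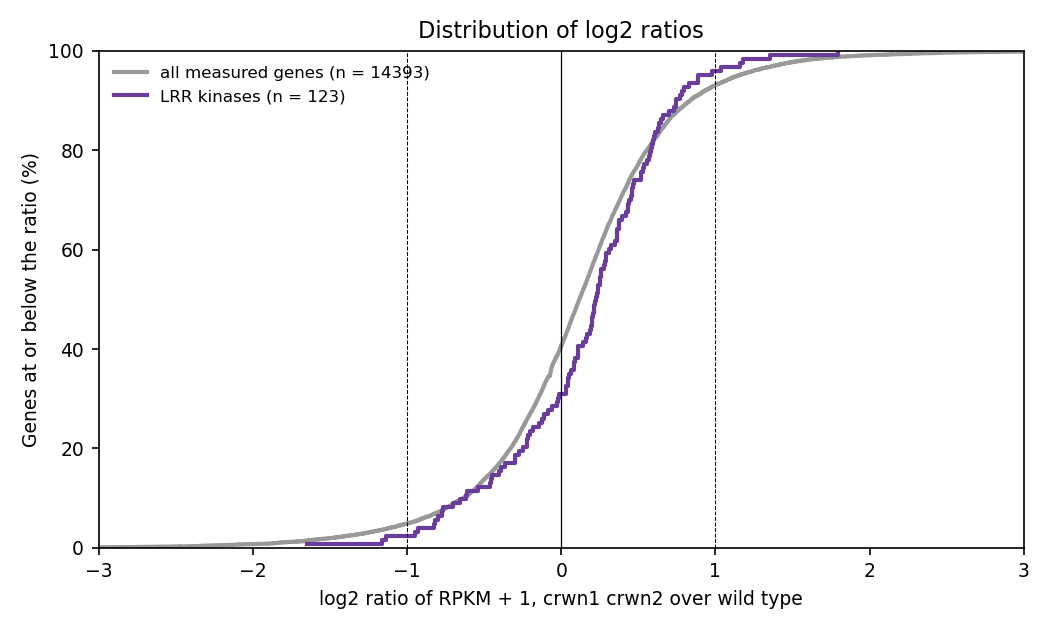
Cumulative share of genes (y axis, in percent) at or below each log2 ratio of RPKM + 1 of mutant against wild type (x axis) for the 123 measured LRR kinases and all 14393 measured genes, with dashed lines at 2-fold. The LRR kinase curve runs to the right of the grey curve around 0, with medians of 0.23 and 0.12. On this scale it has a smaller share of genes beyond the dashed lines, a gap that was smaller with CPM or a pseudocount of 0.1.

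Receptors for bacterial patterns and for wound or immune peptides, a group written after the values were seen, mostly had fewer reads in the mutant library. Of the 5 measured genes of this group, 1 was called lower (PEPR2) and none higher. The intervals of 3 were below equality and those of the other 2 held it, and the group's median log2 ratio was -0.46. Beside this and the role groups below, 4.53% and 6.34% of all measured genes were called lower and higher. Intervals of 12.5% and 22.4% of all measured genes lay below and above equality. In groups this small, 1 call is no result about the group. PEPR1 and PEPR2 encode the receptors of Pep peptides, which are cut from PROPEP precursors in damaged cells. PEPR1 (chromosome 1, 27484513 to 27488201) had 251 and 135 reads, an RPKM of 33.7 and 17.2. This was 1.96-fold lower (1.58 to 2.43) at a log2 ratio of -0.93, not called here but called lower after TMM scaling (-1.06) and after median-of-ratios scaling (-1.03). PEPR2 (chromosome 1, 6106656 to 6110120) had 47 and 18 reads, an RPKM of 6.64 and 2.42, and was 2.75-fold lower (1.57 to 5.03). Both Pep receptor genes thus had fewer reads in the mutant, and the ratio between their ratios was 0.713 (0.374 to 1.31), an interval that holds 1. Their coding sequences are 75.9% identical where aligned.

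FLS2 encodes the receptor of bacterial flagellin and EFR that of bacterial elongation factor Tu. FLS2 (chromosome 5, 18791736 to 18795546) had 222 and 167 reads, 1.40-fold lower (1.14 to 1.72), with a log2 ratio of -0.46 and no call. It overlaps AT5G46340, with 177 and 137 reads, by 172 bases. EFR was rare in both libraries, with 16 and 24 reads, a log2 ratio of 0.37 and an interval that held equality (read ratio 0.727 to 2.87). Set against FLS2, EFR had a ratio of ratios of 1.99 (0.979 to 4.15), so a difference between these 2 receptor genes was not detectable at this depth. RLK7, a receptor of immunity-amplifying PIP peptides, had 46 and 38 reads and a log2 ratio of -0.30. Reads covered only 6.03% and 7.31% of its transcript model, against 48.8% and 42.5% if spread evenly, so its level is uncertain. FRK1, a kinase gene known as a marker of early flagellin responses, had 1 and 4 reads and was not measured. Its read ratio of 3.80 had an interval of 0.376 to 187.

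The kinase domain sequences of these receptors differ at a known catalytic position, shown here because FLS2 and EFR differ at it from BAK1 and SOBIR1. Most kinases have an arginine before the catalytic aspartate, and many immune receptors have another residue there. In the lines that follow, the codon before the aspartate codon is in capitals. Each is 24 bases of coding sequence, 5′ to 3′, from the RefSeq TAIR10.1 genome, and spans chr5:18794784-18794807 for FLS2, chr5:6925035-6925058 for EFR, chr3:17530119-17530142 for AT3G47570, chr1:27487366-27487389 for PEPR1, chr1:6109410-6109433 for PEPR2 and chr2:13556378-13556401 for SOBIR1, all on the plus strand, and chr4:16087320-16087343 on the minus strand for BAK1.
FLS2: catTGTgatctgaagccagctaat
EFR: cacTGTgatattaagccaagcaac
AT3G47570: catTGCgatcttaagccaagcaac
PEPR1: cacCGTgacatcaaaccagagaac
PEPR2: cacCGCgacatcaaaccagagaac
SOBIR1: cacAGAgacttaaagccagccaat
BAK1: catCGAgatgtgaaagctgcaaat
FLS2, EFR and AT3G47570 carry a cysteine codon at that position, and PEPR1, PEPR2, SOBIR1 and BAK1 an arginine codon. AT3G47570, a kinase gene whose coding sequence is 70.9% identical to that of EFR, had 120 and 62 reads and was 2.04-fold lower (1.49 to 2.81) at a log2 ratio of -0.95. It was not called here and was called lower after TMM scaling (-1.07).

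Among co-receptors and adaptors was SOBIR1, the measured LRR kinase with the lowest log2 ratio of RPKM + 1. Of 7 such genes 5 were measured, with 1 called lower (SOBIR1), none higher, 3 intervals below equality and a median log2 ratio of -0.66. SOBIR1 (chromosome 2, 13554894 to 13556977) works with receptor-like proteins that have LRRs but no kinase domain. It was the most abundant LRR kinase transcript in both libraries, with 1068 and 356 reads and an RPKM of 245 and 77.5. That was 3.16-fold lower (2.80 to 3.57), a log2 ratio of -1.65. After SOBIR1 the next level in wild type was that of BARK1, at 72.8 RPKM, so SOBIR1 stood apart in wild type and lay close to AT3G28040 (75.1), ERECTA (73.0) and LIK1 (70.1) in the mutant. SOBIR1 overlaps AT2G31890 on the opposite strand by 478 bases, and that gene had 182 and 235 reads and was not called. BARK1, a BAK1-associating kinase gene, had 450 and 288 reads and was 1.64-fold lower (1.41 to 1.91). BIR2, a pseudokinase that holds BAK1 away from receptors, had 97 and 63 reads and was 1.62-fold lower (1.17 to 2.26). Neither was called, at log2 ratios of -0.70 and -0.66. BIR2 relative to SOBIR1 had a ratio of ratios of 1.95 (1.36 to 2.77), so SOBIR1 differed by more than BIR2 beyond counting error. LIK1, a partner of the chitin receptor, had 468 and 524 reads at a log2 ratio of 0.09, and IOS1, a kinase gene of immune signalling, had 25 and 26 reads at -0.01. SOBIR1, the Pep receptor genes and FLS2 were low in the library in which 13 of 15 measured touch and wound markers were called lower (4.53% of all measured genes were), and the part of touch and wounding in the values of these kinase genes was not tested.

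BAK1, the shared co-receptor of FLS2, EFR and the Pep receptors, was listed with 0 and 7 reads, and these reads covered 3.41% of its model in the mutant. Its floor of 10 reads was not met, and its interval started at 1.37. The level of BAK1 is not measured by these values, since the files appear to leave out reads that several transcript models of a locus share. Close relatives outside the product-name rule had more reads. SERK1 had 55 and 86, SERK2 133 and 155, SERK4 56 and 86, and SERK5 23 and 18, none of them called. BIR1, a negative regulator of SOBIR1-dependent defence, had 521 and 330 reads at a log2 ratio of -0.72. Over 17 measured LRR kinases outside the name rule, such as BIR1 and the SERK genes, none was called. Of their intervals 5 lay below equality and 5 above, with a median log2 ratio of -0.01. After TMM scaling 6 lay below and 2 above, with a median of -0.13, so this even split depended on the scaling.

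**Figure D3:**
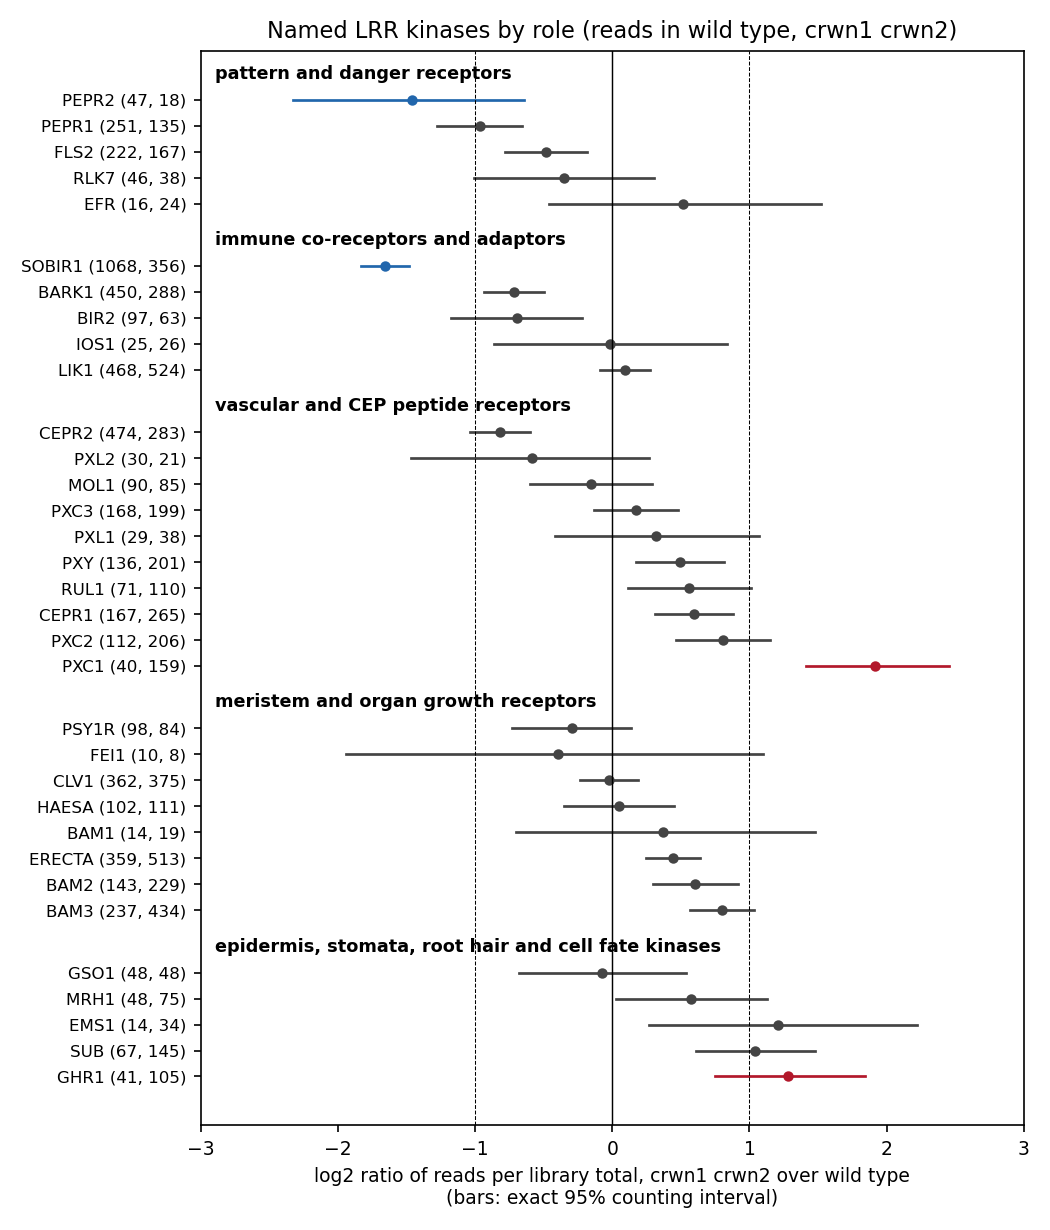
Log2 ratio of reads per library total, mutant over wild type (x axis), for the named and measured LRR kinases of 5 role groups, with bars for the exact 95% counting interval, reads in wild type and mutant in parentheses, and called genes in colour. PEPR2, PEPR1, FLS2, SOBIR1, BARK1, BIR2 and CEPR2 have intervals wholly below 0, and 12 genes of the vascular, meristem and epidermal groups have intervals wholly above 0.

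Vascular and CEP peptide receptors went both ways. Of 10 measured genes 1 was called higher (PXC1) and none lower, with 5 intervals above equality, 1 below and a median log2 ratio of 0.36. PXC1 (chromosome 2, 15335496 to 15337927), a kinase gene needed for secondary wall formation in fibre cells, had 40 and 159 reads, an RPKM of 8.27 and 31.3. This was 3.78-fold higher (2.66 to 5.49) at a log2 ratio of 1.80, the highest of the 123 genes. PXY, the receptor of TDIF peptides that keep vascular stem cells dividing, had 136 and 201 reads and a log2 ratio of 0.47. Its relatives PXL1 and PXL2 had 29 and 38 reads and 30 and 21 reads, and both intervals held equality. PXC1 relative to PXY had a ratio of ratios of 2.68 (1.76 to 4.16). PXC2 had 112 and 206 reads, a log2 ratio of 0.77, and PXC3 168 and 199, a ratio of 0.16. RUL1 and MOL1, kinase genes with opposite effects on cambium activity, had 71 and 110 reads and 90 and 85 reads, a ratio of ratios of 1.64 (1.05 to 2.55). The interval of RUL1 held equality after TMM scaling (0.986 to 1.83), and RUL1 overlaps the far more abundant AT5G05170 (2722 and 2346 reads) on the opposite strand by 74 bases. PXC1, and GHR1, SUB, EMS1, BAM2 and BAM3 described next, were high in the mutant library. In it 6 of 11 root markers, all 6 of them root hair genes, and 5 of 9 dividing-cell markers were called higher (6.34% of all measured genes were). Those 6 root hair genes reached 10 reads only in the mutant library, so their count follows in part from the rule for measured genes. These kinase genes were chosen after their values were seen, and the part of root hair and dividing cells in their values was not tested. The root hair kinase gene MRH1 had a log2 ratio of 0.52 and an interval that held equality after TMM scaling. GSO1 of the root endodermis was at -0.06.

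CEPR1 and CEPR2, paired receptors of the CEP peptides that signal low nitrogen from root to shoot, differed in direction. CEPR1 had 167 and 265 reads, a read ratio of 1.51 (1.24 to 1.84). CEPR2 had 474 and 283 reads, 1.76-fold lower (1.52 to 2.05). Neither was called, at log2 ratios of 0.57 and -0.80. CEPR1 relative to CEPR2 thus had a ratio of ratios of 2.66 (2.07 to 3.42), which no library scaling can change. In RPKM, CEPR2 was at 63.0 and CEPR1 at 24.2 in wild type, and they were at 35.7 and 36.5 in the mutant. Their coding sequences are 62.8% identical where aligned. The 7 ratios of ratios given here were chosen after the values were seen, and their intervals cover counting error only.

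Meristem and organ growth receptors were near equality or moderately above it. Of 9 genes 8 were measured, none was called, 3 intervals were above equality and none below, and the median log2 ratio was 0.15. CLV1, the receptor that restricts the shoot stem cell pool, had 362 and 375 reads and a log2 ratio of -0.02. BAM3, its relative in the phloem, had 237 and 434 reads, a read ratio of 1.74 (1.48 to 2.05), and BAM2 had 143 and 229, a ratio of 1.52 (1.23 to 1.89). BAM3 relative to CLV1 had a ratio of ratios of 1.77 (1.42 to 2.20). BAM1 had 14 and 19 reads over only 5.23% and 5.08% of its model, so its level is uncertain. ERECTA, which sets organ shape and stomatal spacing, had 359 and 513 reads, a read ratio of 1.36 (1.18 to 1.56) and RPKM values of 53.7 and 73.0. PSY1R, a receptor gene of cell growth, had 98 and 84 reads, and HAESA, a receptor of organ shedding, had 102 and 111. FEI1, a kinase gene of root wall synthesis, had 10 and 8 reads over 3.45% and 2.98% of its model (17.7% and 14.4% if spread evenly), and its close relative FEI2 had 7 and 7 and was not measured.

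Kinases of the epidermis, stomata, root hairs and cell fate lay above equality with 1 exception. Of 6 genes 5 were measured, 1 was called higher (GHR1), 4 intervals were above equality and none below, and the median log2 ratio was 0.88. GHR1 (chromosome 4, 11202728 to 11206280), which acts in guard cells upstream of anion channels that close stomata, had 41 and 105 reads, an RPKM of 6.16 and 15.0. It was 2.43-fold higher (1.68 to 3.58) at a log2 ratio of 1.16, and remained called after TMM scaling (1.04). SUB, a kinase gene that coordinates cell patterning in root epidermis and floral organs, had 67 and 145 reads, a read ratio of 2.06 (1.53 to 2.79) and a log2 ratio of 0.98, not called. EMS1, known for cell fate in the anther, had 14 and 34 reads, a read ratio of 2.31 (1.21 to 4.66) and a log2 ratio of 0.88. SUB and EMS1 were called higher with a pseudocount of 0.1, at 1.03 and 1.16. MRH1, a root hair kinase gene, had 48 and 75 reads and an interval of 1.02 to 2.18 that held equality after TMM scaling. GSO1, which acts in the root endodermis, had 48 and 48 reads at a log2 ratio of -0.06, and its relative GSO2 had 8 and 6.

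Among 9 other annotated genes, 5 were measured and none was called. SKM1, a pollen tube receptor gene, had 137 and 192 reads at a log2 ratio of 0.40. SKM2 had 11 and 3 reads, an interval of the read ratio of 0.0464 to 0.981 and a log2 ratio of -0.83, and its reads covered 2.48% and 1.45% of its model where 13.7% and 3.93% would be covered evenly. MEE62 had 91 and 164 reads at 0.75, LRR1 had 101 and 138 at 0.36, and SARK, a senescence kinase gene, had 46 and 59 at 0.26. IKU2, MEE39, SIRK1 and PRK4 had between 0 and 5 reads in each library.

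The remaining 115 genes were placed in no role group and are called unnamed here, whatever names they have elsewhere. Of them 85 were measured. They had a median log2 ratio of 0.23, the same as the family, with 1 called lower and 3 higher (4.53% and 6.34% of all measured genes were), 8 intervals below equality and 19 above. After TMM scaling the interval counts were 12 below and 11 above, so the excess of upward intervals depended on the scaling. AT4G29990 had 44 and 17 reads, an RPKM of 6.30 and 2.31, and was 2.72-fold lower (1.52 to 5.08) at a log2 ratio of -1.14. The genes called higher had few reads and reached 10 only in the mutant library. AT5G59650 had 4 and 20 reads, a read ratio of 4.75 (1.59 to 19.1), while AT5G24100 and AT5G48740 each had 2 and 11 reads, a ratio of 5.23 (1.14 to 48.5). AT5G48740 was not called after TMM scaling (0.98), and its locus overlaps AT5G48730, with 53 and 73 reads, by 78 bases. Among abundant unnamed genes, AT3G28040 had 324 and 539 reads, a read ratio of 1.58 (1.38 to 1.82) and rank 10 in wild type and rank 2 in the mutant among RPKM values of the family. AT2G26730 had 281 and 363 reads, AT2G01820 350 and 323, and AT5G49760 360 and 324. AT4G23740, AT5G43020 and AT5G51560 had log2 ratios of 0.73, 0.75 and 0.83 with 112 and 199, 73 and 132, and 64 and 124 reads. On the other side AT2G16250 had 68 and 38 reads and AT5G25930 68 and 39, at -0.82 and -0.77.

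Not measured were 38 genes, none of which exceeded 9 reads in either library. In wild type 7 LRR kinases were at 0 reads, with at most 7 in the mutant, and in the mutant 3 were at 0, with at most 3 in wild type. AT3G21340 had 0 and 6 reads and AT1G66830 1 and 9, and like BAK1 they had intervals above equality without reaching 10 reads. A count of 0 allows a share of up to 0.000143% of the wild-type reads and 0.000136% of the mutant reads.

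The genes of the family lie scattered over all 5 chromosomes, and the chromosomes differed in how many intervals lay above equality. On chromosome 1 there were 2 of 41 measured LRR kinases above equality (4.88%, where 20.9% of all measured genes of that chromosome were), and on chromosome 5 there were 16 of 34 (47.1%, where 22.5% of all were). Chromosomes 2, 3 and 4 had 5 of 21, 4 of 12 and 6 of 15 (23.8%, 33.3% and 40.0%, where 23.3%, 23.5% and 23.0% of all were). Below equality lay 5, 2, 4, 1 and 4 genes on chromosomes 1 to 5 (12.2%, 9.52%, 33.3%, 6.67% and 11.8%, where 12.6%, 13.1%, 11.8%, 12.6% and 12.4% of all were). This pattern was noticed in the data and was not tested. In 12 runs of nearby family members, with starts at most 15 kb apart, lay 33 of the 161 genes, and other genes may lie between them. Only AT5G59650 was called among them. AT1G53430 and AT1G53440, whose coding sequences are 90.9% identical where aligned, had 0 and 1 reads and 287 and 326 reads. The run from AT1G56120 to AT1G56140, with identities of 89.2% to 91.5%, had log2 ratios between -0.45 and 0.38. Reads that fit both copies of such pairs are not uniquely placed, so their levels are uncertain.

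Across the family, the residue coded before the catalytic aspartate was set beside the values. An arginine codon was found in 86 genes, another codon in 15, and the searched pattern was not found in 60, which says only that these letters are absent. The pattern was, in codons, histidine, any residue, aspartate, a leucine, isoleucine, valine, methionine or phenylalanine, lysine, any pair of residues and asparagine, as in the windows shown above. Over all measured genes, 4.53% were called lower and 6.34% higher, and 12.5% and 22.4% had intervals below and above equality. Among the 61 measured genes with arginine, 3 were called lower and 2 higher, the median log2 ratio was 0.11, and 10 intervals were below and 13 above equality. The 13 with another codon had none called, a median of 0.05, and 3 and 2 such intervals. The 49 without a match, PXC1, GHR1 and AT5G24100 among them, had 3 called higher and none lower, a median of 0.33, and 3 intervals below and 18 above equality. After TMM scaling the medians were -0.01, -0.08 and 0.19, so the sign of the arginine and other-codon medians depended on the scaling while the order of the classes did not. With that scaling 4, 1 and 0 genes of the arginine, other-codon and unmatched classes were called lower (5.74% of all measured genes were). The classes differ in more than this position, and the difference was not tested.

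**Figure D4:**
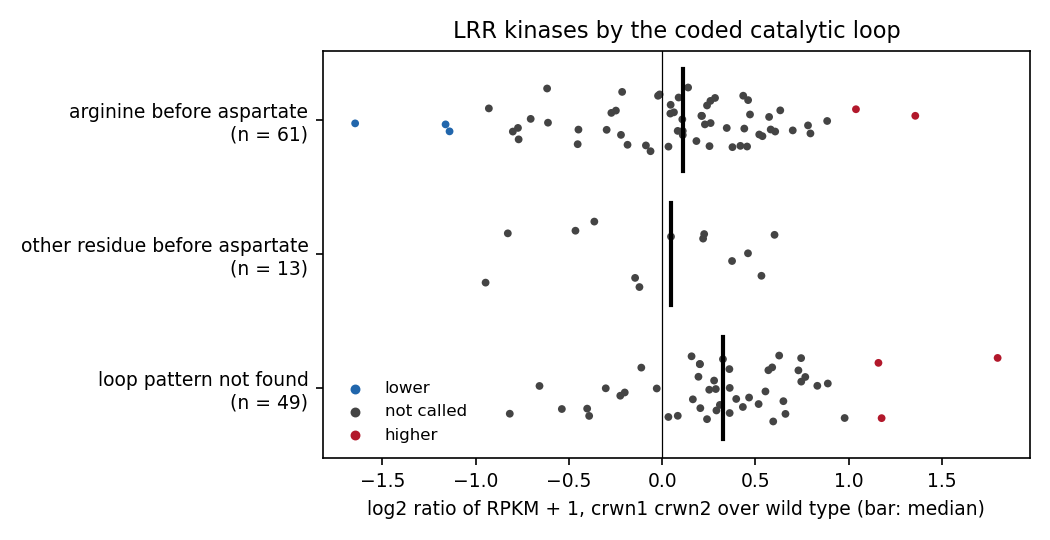
Log2 ratio of RPKM + 1 of mutant against wild type (x axis) for measured LRR kinases by the residue coded before the catalytic aspartate, with 1 point per gene, bars at the class medians of 0.11, 0.05 and 0.33, and vertical jitter without meaning. All 3 genes called lower lie in the arginine class, which holds 61 of the 123 measured genes, and the class without a match lies furthest to the right.

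The W-box, the binding motif of WRKY transcription factors, was searched in the 250 bases before each gene's start in RefSeq, because several WRKY genes differed between the libraries. The letters searched were TTGACC and TTGACT on either strand. They were found for 53 of the 161 genes (32.9%) and for 28.4% of 27443 protein-coding genes. Of the 16 genes with an interval below equality 7 held a W-box (43.8%), of the 33 above it 7 (21.2%) and of the 74 that held it 29 (39.2%), where the shares among all measured genes with such intervals were 31.7%, 26.0% and 28.4%. Over all intervals it was in 35.0% of the measured LRR kinases and in 28.2% of all measured genes. The windows of FRK1, a target gene of flagellin signalling, and of PEPR2 and PXC1, called lower and higher, are shown as examples with and without these letters. They are given 5′ to 3′ on the strand of the gene, from RefSeq TAIR10.1, with W-box letters in capitals, and span chr2:8329945-8330194 on the minus strand for FRK1, chr1:6106073-6106322 on the plus strand for PEPR2 and chr2:15335034-15335283 on the plus strand for PXC1.
FRK1: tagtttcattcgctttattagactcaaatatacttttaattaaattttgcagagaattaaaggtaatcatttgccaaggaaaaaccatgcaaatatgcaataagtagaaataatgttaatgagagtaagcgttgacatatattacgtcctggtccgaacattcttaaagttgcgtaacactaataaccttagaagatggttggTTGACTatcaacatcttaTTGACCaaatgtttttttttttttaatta
PEPR2: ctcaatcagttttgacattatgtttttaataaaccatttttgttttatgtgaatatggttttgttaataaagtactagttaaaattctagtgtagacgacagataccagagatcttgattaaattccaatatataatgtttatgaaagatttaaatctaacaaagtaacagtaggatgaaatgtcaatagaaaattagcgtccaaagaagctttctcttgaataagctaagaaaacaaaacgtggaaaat
PXC1: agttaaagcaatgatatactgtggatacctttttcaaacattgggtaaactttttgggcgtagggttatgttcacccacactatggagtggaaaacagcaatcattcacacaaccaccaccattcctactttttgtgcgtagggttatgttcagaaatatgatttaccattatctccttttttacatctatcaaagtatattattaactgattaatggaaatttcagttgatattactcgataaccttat
FRK1 held 2 W-boxes, and the windows of PEPR2 and PXC1 held none. A match is a string of letters, not a binding site.

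Most immune signalling partners of these receptors, a list of cytoplasmic steps, transcription factors and other receptors, were not called, and WRKY and MPK3 genes were among the exceptions. Of 24 such genes 23 were measured, 5 were called lower (4.53% of all measured genes were), 1 higher (6.34%) and 17 neither, and the median log2 ratio was -0.38. The lower genes were WRKY40 (1834 and 280 reads), WRKY33 (2762 and 715), LYK5 (329 and 92), WRKY22 (241 and 72) and MPK3 (1415 and 495), and the higher gene was WRKY29 (10 and 30). BIK1, a cytoplasmic kinase that acts below FLS2 and the Pep receptors, had 121 and 87 reads at a log2 ratio of -0.53. RBOHD, the oxidase of the immune oxidative burst, had 407 and 214 reads at -0.98, not called. MPK3 and MPK6, kinases that act in parallel below the receptors, had log2 ratios of -1.58 and -0.49.

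Of 19 peptide ligand genes 13 were measured, with 3 called lower and 2 higher (4.53% and 6.34% of all measured genes were) and a median log2 ratio of -0.54. The precursor genes of the Pep ligands were among the lower, with 64 and 21 reads for PROPEP1 and 34 and 5 for PROPEP3. PROPEP4 and PROPEP6 had 13 and 9 and 16 and 16 reads. The phytosulfokine precursor genes PSK2 (28 and 10 reads) and PSK5 (25 and 60) were called in opposite directions, and the receptor gene PSKR1 had 137 and 109 reads at -0.38. EPF2, a stomatal ligand sensed by the ERECTA family, had 2 and 16 reads and was called higher. EPF2 reached 10 reads only in the mutant library, and PROPEP3 only in wild type. CLE41, the TDIF precursor gene of the ligand of PXY, had 72 and 120 reads at 0.65, and CLV3 and IDA were listed in neither library. After TMM scaling 6 partners and 5 ligands were called lower (5.74% of all measured genes were).

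Markers of touch and wounding, roots and dividing cells differed beside these groups. Over all measured genes 4.53% were called lower and 6.34% higher. Of 17 touch and wound genes 15 were measured, 13 were called lower and none higher, and CML38 was listed in neither library. Their median log2 ratio was -1.46, and their summed RPKM was 5491 in wild type and 1804 in the mutant. JAZ7, a jasmonate repressor gene, had 123 and 8 reads and TCH4, a touch-induced wall enzyme gene, 4694 and 932. Of 13 root markers 11 were measured, 6 were called higher and none lower, with a median of 2.26, or 2.15 when the genes at 0 in wild type were set to a floor of 3 reads. Their summed RPKM was 2376 and 2758. The root hair expansin genes EXPA7 and EXPA18 were at 0 in wild type and had 14 and 24 reads in the mutant, the iron transporter gene IRT1 had 0 and 4, NRT2.1 was listed in neither library, and PYK10, an abundant root glucosidase gene, had 8598 and 10188 reads. The 6 called were EXPA7, EXPA18, PRP1, PRP3, LRX1 and COBL9, genes known from root hairs. The 5 measured root markers not called were nearer to equality, with log2 ratios of 0.54 for WER, 0.35 for SCR, 0.17 for PYK10, 0.16 for SHR and 0.09 for PHO1. Of 9 dividing-cell markers 5 were called higher, with a median of 1.18 and a summed RPKM of 106 and 247. The genes of the family and the lists were written with earlier results of these data known, so the lists are no independent evidence of direction.

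**Figure D5:**
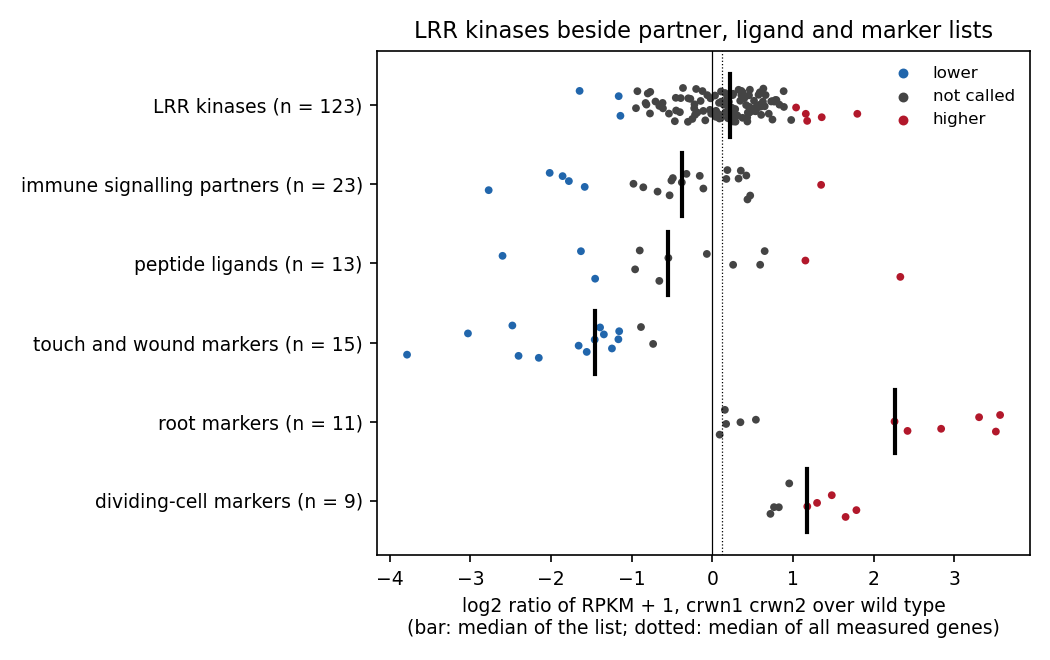
Log2 ratio of RPKM + 1 of mutant against wild type (x axis) for measured LRR kinases and 5 lists of partner, ligand and marker genes, with 1 point per gene, black bars at list medians, a dotted line at the median of all measured genes (0.12) and vertical jitter without meaning. LRR kinases cluster around 0.23 while touch and wound markers lie at a median of -1.46 and root markers at 2.26.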

How the data were processed

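Polyadenylated RNA of 10-day seedlings was read on a HiSeq machine, per the labels' protocols, with 1 library per genotype. Per the file headers, each transcript model has a deposited read count, which holds uniquely placed reads only and is a whole number. The authors' RPKM values divide those counts by model length and by the library total in each header. The deposited coverage column is the percent of a model's bases with a read. The submitters' processing notes name TAIR10 as the genome build. The sources used here do not name an aligner, counting rule or filter. The files omit models without a read, and they appear to omit reads that several models of 1 locus share.

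Reads and RPKM were summed per locus with pandas 2.3.3, and 7 LRR kinase loci had several listed models. The log2 ratio used a pseudocount of 1. Intervals of read ratios are conditional binomial (Clopper-Pearson) at 95%, and those of ratios of ratios are exact conditional odds ratios (SciPy 1.17.1). A gene counted as measured if at least 1 library gave it 10 reads and an RPKM of 1, and as called at 2-fold with an interval that excluded equality. A gene with few reads could thus count as measured only through the library in which it was high. The calling step was checked on simulated counts. Alternatives were TMM scaling (edgeR 4.0.16, factors 0.954 and 1.05), median-of-ratios scaling (DESeq2 1.42.0), CPM, a pseudocount of 0.1, no floor or an RPKM floor of 5, and 4-fold and 1.5-fold thresholds. edgeR and DESeq2 were used for scaling factors only.

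The genes and lists were chosen with earlier results of these data known, and the role groups were written after the values were seen. Named by rule were the 6 immune loci listed in the choice of genes, all called genes, listed genes that were measured, and the 5 with the highest wild-type RPKM. Other genes were named after their values were seen. Of 174 listed genes, 138 whose names RefSeq or the files give were used. Sequences and overlaps are from RefSeq TAIR10.1 with its own annotation, and file coordinates of 156 of 161 loci held the RefSeq coding sequence. Coordinates of genes are those of the files. Identities are from pairwise alignments of coding sequences (Biopython 1.88).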

Additional observations from a re-analysis of the deposited data

How the results depend on the processing

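Counts of called LRR kinases depended on the settings more than the genes named by rule did. Against 3 called lower, 5 were with TMM scaling, with median-of-ratios scaling (5.43% of all measured genes), with a pseudocount of 0.1 (4.97%) and with CPM (4.7%), 12 with a 1.5-fold threshold (8.3%) and 0 with a 4-fold threshold (0.75%). Against 5 called higher, 8 were with a pseudocount of 0.1 (7.29%) and with CPM (6.79%), 2 with an RPKM floor of 5 (6.14%), 19 with a 1.5-fold threshold (13.8%) and 0 with a 4-fold threshold (0.896%). The median log2 ratio of 0.23 was 0.11 with TMM, 0.13 with median-of-ratios scaling, 0.25 with a pseudocount of 0.1, 0.21 with an RPKM floor of 5, 0.17 with no floor, 0.24 with CPM and 0.23 for loci with 1 listed transcript model. Models without a read are not listed, so such a locus may have others, and the unevenly covered RLK7 was kept with 1 listed model. That setting therefore cannot show that dropped shared reads had no part. Leaving out the 6 genes whose reads covered under a fraction of 0.5 of the evenly expected length, where that was over 20% of the model, an alternative chosen after seeing the data, gave 3 lower, 5 higher and a median of 0.23. Intervals below equality numbered 16, 20 with TMM and 18 with median-of-ratios scaling, and those above 33, 22 and 24. Over the 38 genes named by rule and 6 settings, 212 of 228 values kept direction and side of the threshold. Of the rest 5 lost the call and 7 gained it, and no called gene changed sign. The other 4 values were those of the uncalled LIK1 and HAESA, which changed sign with TMM (-0.04 and -0.08) and median-of-ratios scaling (-0.02 and -0.05). AT5G48740 lost its call with TMM (0.98), median-of-ratios scaling (0.99) and the RPKM floor of 5, which also removed AT5G24100 and AT5G59650. The gains among the 38 were those of PEPR1, SUB, EMS1 and, with no floor, BAK1 (1.16). Other genes described here were not among the 38. One of them, AT3G47570, was called lower with TMM (-1.07) and with median-of-ratios scaling (-1.05). No paired analysis was possible because each genotype had 1 library, and no replicate could be left out for the same reason. At this depth genes with few reads, such as EFR with 16 and 24, could differ by 2-fold without detection.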
